A study of Mus with 96 samples.

Results

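The livers of 4 Hep-Bmal1KO and 4 Hep-Bmal1WT mice on the choline-deficient high-fat diet (cdHFD), collected at ZT18, were compared gene by gene. ZT18 is 18 h after lights on and falls in the middle of the 12 h dark phase, when mice are active and feed. These 8 libraries, chosen by genotype, diet and time label, are 8 of the 96 liver libraries of the series, which holds 4 mice in each group of genotype, diet (cdHFD or normal chow, NC) and 6 time points. Hep-Bmal1KO mice carried Alb Cre/+ and Bmal1 flx/flx, so the deletion was driven by the albumin promoter and aimed at hepatocytes, and other liver cells kept Bmal1. Hep-Bmal1WT littermates were Alb +/+ and Bmal1 flx/flx and therefore shared the floxed alleles and the C57BL/6J background. Every mouse was 8 to 10 weeks old and had eaten cdHFD, with 60% fat and 2% cholesterol, for 2 weeks, and each group held 2 males (replicates 1 and 2) and 2 females (replicates 3 and 4). The 8 cdHFD libraries of ZT06, 12 h away in the light phase, served as the second time point.

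BMAL1, the product of Arntl, pairs with CLOCK or NPAS2 on E-box elements and switches on the Per and Cry genes, the nuclear receptor genes Nr1d1 and Nr1d2 (REV-ERB), and Dbp. PER and CRY proteins then hold the activators back, while REV-ERB represses and ROR receptors activate Arntl and Cry1 through shared response elements. In liver this clock times the expression of enzymes of sugar, lipid, bile acid and drug metabolism around the feeding period.

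The ZT18 libraries held 6966432 to 9170873 reads assigned to genes in Hep-Bmal1KO (median 7973448) and 6074023 to 7394124 in Hep-Bmal1WT (median 6560569), and the ZT06 libraries held 5872198 to 7200236. CPM are reads of a gene scaled by the library's total and by a TMM normalisation factor. The summed CPM of 8 hepatocyte markers, Alb and Ttr among them, were 83060 to 98770 in Hep-Bmal1KO and 96390 to 107700 in Hep-Bmal1WT. No ZT18 or ZT06 library lay nearer to the other genotype on both the clock genes and a set of 20 non-clock genes that separate the genotypes at the other time points. At ZT18 the non-clock positions, scaled so that 0 is the Hep-Bmal1WT median and 1 the Hep-Bmal1KO median, were -0.20 to 0.23 for Hep-Bmal1WT and 0.80 to 1.2 for Hep-Bmal1KO. On the clock genes the ZT18 groups overlapped, at 0.15 to 0.79 for Hep-Bmal1WT and 0.69 to 1.34 for Hep-Bmal1KO, and Hep-Bmal1WT replicates 1 (0.79) and 4 (0.55) lay nearer to Hep-Bmal1KO. At other time points 3 cdHFD libraries did lie nearer to the other genotype on both, namely Hep-Bmal1WT ZT10 replicate 3, Hep-Bmal1WT ZT14 replicate 1 and Hep-Bmal1KO ZT14 replicate 1. These 3 enter the estimate of spread in the 48-library fit. Each column of the library plate held 1 genotype, with the ZT18 and ZT22 libraries together in column 6 (Hep-Bmal1WT) or 12 (Hep-Bmal1KO), so plate column and genotype cannot be told apart. In whole liver, fewer cells of a type and less RNA per cell cannot be told apart either.

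Of 15548 genes tested at ZT18, 0 passed an adjusted p under 0.05 in the 48-library fit (edgeR quasi-likelihood test, Benjamini-Hochberg adjustment). The smallest adjusted p was 0.0509, 15 genes were under 0.1, and 1234 genes (7.94%) had an unadjusted p under 0.05, of which 653 (4.2%) were higher and 581 (3.74%) lower in Hep-Bmal1KO. DESeq2 on the same 48 libraries called 9 genes higher and 23 lower. When the 8 ZT18 libraries were fitted alone, so that the spread came from these mice only, 139 genes (0.894% of those tested) passed, 52 higher (0.334%) and 87 lower (0.56%) in Hep-Bmal1KO. Without the 3 libraries of other time points named above, the 48-library design called 20 genes higher and 16 lower (0.232%), 26 of which were among the 139. Of the 139, 21 were also called by DESeq2 and 8 with sex as a covariate, both over 48 libraries. Every "rose" or "fell" at ZT18 below means an adjusted p under 0.05 in the 8-library fit, an alternative to the 48-library test. In simulated counts 8.38% of the calls of the 8-library fit were false, against 4.22% for the 48-library fit. Each simulation took its spread from the fit it tested and held no acinar reads or plate effects. The share of false calls among the 139 can therefore not be read from it. Log2 fold changes (Hep-Bmal1KO minus Hep-Bmal1WT) and their standard errors (SE) come from the 48-library fit, and a value pair such as -0.56 ± 0.26, 0.00768 (Tkfc) gives the log2 fold change, its SE and the adjusted p of the 8-library fit. The SE and the adjusted p of a pair thus come from different fits and can disagree. In the 48-library fit the adjusted p of the 139 genes ran from 0.0509 to 0.754. In 136 of the 139 genes the 4 Hep-Bmal1KO values did not overlap the 4 Hep-Bmal1WT values, against 6.62% of all genes tested (3.11% higher, 3.51% lower). The 139 were called from these same 8 libraries. Their lack of overlap, here and gene by gene below, therefore largely follows from the call and adds no separate support. Since no gene passed the 48-library test, the genes described beyond the clock genes and the gene lists were chosen after their values were seen, and the lists with earlier results known.

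Hep-Bmal1KO replicates 1 and 3 at ZT18 held transcripts of pancreatic acinar cells. Summed over 17 acinar genes, a list drawn up after values were seen, the 4 Hep-Bmal1KO livers measured 987.26, 1.43, 271.4 and 2.44 CPM and the 4 Hep-Bmal1WT livers 2.54, 0.47, 1.73 and 9.21 CPM, while the cdHFD libraries of other time points reached at most 129.89 CPM. All 17 had an unadjusted p under 0.05 in the 48-library fit, 6 were among the 15 genes with an adjusted p under 0.1, and 5 were among the 36 called without the 3 libraries of other time points. None of the 17 was called in the 8-library fit. Without both replicates, with 2 Hep-Bmal1KO livers left, the 8-library fit called 13 genes higher and 20 lower, 28 of them among the 139, and all 139 kept their sign.

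The differences at ZT18 were mostly moderate. The median absolute log2 fold change of the 139 genes was 0.633, and 23 of them differed by at least 2-fold, 14 higher and 9 lower. Leaving out each of the 8 libraries in turn left 34 genes called in every one of the 8 fits, 13 higher and 21 lower. These 34 were the metabolic genes Khk, Tkfc, Gapdh, Eno1, Gbe1, Fitm1, Dgat2, Ces1b, Ces1f, Cyp2a5, Aox3, Agxt, Gsta4, Gstp1, Gstm2, Ggt6 and Dio1, the plasma protein genes Apom, Serpina3m and Serpina7, the immune genes H2-K1, Igtp, Rtp4 and Raet1d, the transporter genes Slc34a2 and Slc13a5, and Arntl, Ccnd1, Lsr, Igsf11, Hebp2, Nupr1, Tox2 and Tinag. Without Hep-Bmal1WT replicate 2 the 8-library fit called 20 genes higher and 30 lower, without Hep-Bmal1WT replicate 3 it called 19 and 32, and without Hep-Bmal1KO replicate 3 it called 24 and 38.

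Arntl, the targeted gene (chromosome 7, 113178471 to 113314126, mm10), measured 9.39, 12.4, 6.84 and 14.6 CPM in the 4 Hep-Bmal1KO livers at ZT18 and 25.4, 23.5, 20.9 and 21 CPM in the 4 Hep-Bmal1WT livers. Every Hep-Bmal1KO value lay below every Hep-Bmal1WT value, and Arntl fell by a log2 fold change of -1.07 ± 0.31 (SE; adjusted p = 0.00476 in the 8 libraries, 0.238 over the 48). At ZT06 the order was the opposite, with 6.53, 4.43, 4.02 and 4.6 CPM in Hep-Bmal1KO and 0.303, 0.65, 0.799 and 2.56 CPM in Hep-Bmal1WT, and a log2 fold change of 2.18 ± 0.46 (adjusted p = 0.0105 over the 48 libraries). The level in Hep-Bmal1WT differed more between the time points than that in Hep-Bmal1KO. The reads come from the 3′ end of the transcript, and which exon is floxed is not given in the sources used here, so the count of Arntl need not show the deletion and is no check of the genotype by itself.

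Of 18 clock genes, 2 passed at ZT18 in its 8 libraries alone (Arntl and Rora) and 10 at ZT06 in its 8 libraries alone (2.39% of all genes tested), and over the 48 libraries 0 passed at ZT18 and 9 at ZT06. The test of the difference between the time points passed for 2 of the 18, Arntl and Cry1. At ZT18 Arntl and Rora were also the 2 with an unadjusted p under 0.05 over the 48 libraries, and 3 had groups that did not overlap (Arntl, Nr1d1 and Rora). Rora, an activator of Arntl, measured 71.1 to 84.9 CPM in Hep-Bmal1KO and 47.2 to 61.6 CPM in Hep-Bmal1WT and rose (log2 fold change 0.50 ± 0.21, adjusted p = 0.0291). At ZT06, 10 of the 18 had groups that did not overlap (7.69% of all genes tested, 3.87% higher and 3.82% lower). The 9 called at ZT06 over the 48 libraries were Arntl, its partners Clock (log2 fold change 0.87) and Npas2 (5.2), and Cry1 (1.60), all higher in Hep-Bmal1KO, and Nr1d1 (-1.28), Nr1d2 (-1.13), Ciart (-2.04), Dbp (-1.94) and Tef (-0.98), all lower. At ZT18 the same genes gave log2 fold changes of 0.24 ± 0.18 for Clock, 0.89 ± 0.66 for Npas2, -0.06 ± 0.23 for Cry1, -0.70 ± 0.40 for Nr1d1, 0.09 ± 0.32 for Nr1d2, -0.87 ± 0.88 for Ciart, 0.25 ± 0.36 for Dbp and -0.24 ± 0.23 for Tef, none with an adjusted p under 0.05 in the 8-library fit.

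None of the remaining clock genes passed at ZT18. The log2 fold changes of the repressor genes were 0.39 ± 0.42 for Per1, 0.12 ± 0.29 for Per2, -0.40 ± 0.46 for Per3, 0.24 ± 0.19 for Cry2, -0.02 ± 0.21 for Bhlhe40 and 0.38 ± 0.89 for Bhlhe41. Those of Hlf, an output activator, and Nfil3, which competes with it on D-box elements, were -0.32 ± 0.28 and 0.01 ± 0.35. The intervals were wide for the scarce transcripts, from -1.40 to 2.16 for Bhlhe41 and from -1.32 to 0.52 for Per3 (95%).

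**Figure D1:**
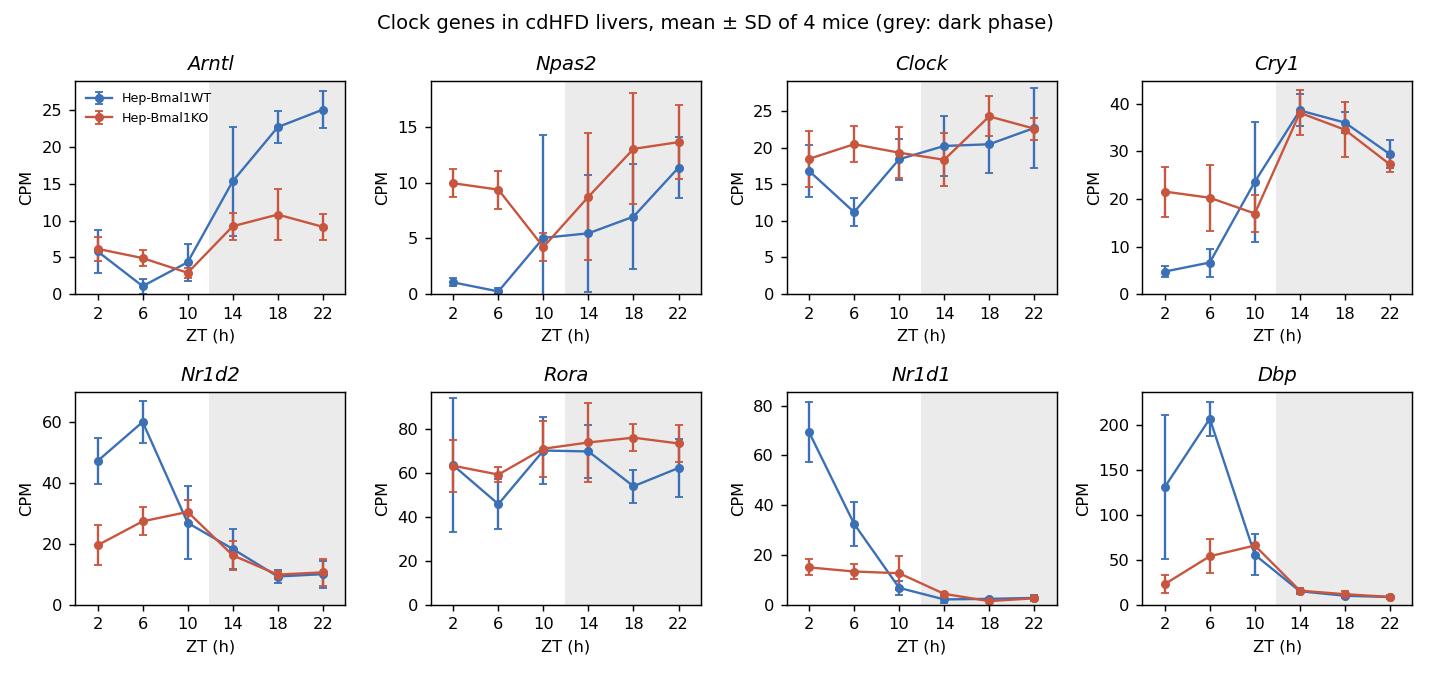
Mean CPM (y axis) of 8 clock genes against Zeitgeber time in h (x axis) in cdHFD livers, Hep-Bmal1WT in blue and Hep-Bmal1KO in red, with bars of 1 SD over 4 mice and the dark phase in grey. Mean Arntl is higher in Hep-Bmal1KO at ZT06 and lower at ZT18, where the Cry1 means lie together.

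The test of the difference between the time points, which subtracts the genotype effect at ZT06 from that at ZT18, passed for 7 genes (0.045% of those tested), all with a lower genotype effect at ZT18. Among them were Arntl (-3.25 ± 0.56, adjusted p = 0.00466), Pnrc1, which encodes a nuclear receptor coactivator (-1.45 ± 0.25, 0.00466), the solute carrier gene Slc45a3 (-1.31 ± 0.25, 0.0154), Insig2, whose product retains the sterol sensor complex in the endoplasmic reticulum (-1.32 ± 0.26, 0.0245), Lgalsl (-1.47 ± 0.30, 0.0271) and Cry1 (-1.66 ± 0.35, 0.0492). Arntl is the only one of the 7 that also passed at ZT18. The log2 fold changes of the others named at ZT18 were -0.25 for Pnrc1, -0.24 for Slc45a3, 0.07 for Insig2, -0.03 for Lgalsl and -0.06 for Cry1. Cry1 measured 31.2, 35.2, 42.4 and 29.4 CPM in Hep-Bmal1KO and 35.8, 36.9, 38.4 and 33.2 CPM in Hep-Bmal1WT at ZT18, against 17.2, 12.1, 27.3 and 24.4 CPM and 6.82, 3.57, 5.59 and 10.6 CPM at ZT06. The genotypes overlapped at ZT18 and were apart at ZT06. Leaving out each library of the 2 time points in turn gave 2 to 8 genes, and without Hep-Bmal1KO ZT18 replicates 1 and 3, the libraries with acinar transcripts, 0 genes passed. No gene passed in the other direction, where the smallest p-values belonged to Dbp (2.19, adjusted p = 0.0865), Coq10b (1.22, 0.113), Rpa2 (1.53, 0.206), Mcm4 (1.48, 0.215) and Hells (2.34, 0.215).

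Several genes of fructose and glucose use were lower in Hep-Bmal1KO at ZT18. Khk, which encodes ketohexokinase, the first enzyme of fructose use (chromosome 5, 30921436 to 30931248), measured 194, 248, 227 and 191 CPM in Hep-Bmal1KO and 436, 406, 364 and 479 CPM in Hep-Bmal1WT, with no overlap, and fell 1.96-fold (log2 fold change -0.97 ± 0.28, adjusted p = 2.13e-05 in the 8 libraries and 0.234 over the 48). Tkfc, whose product phosphorylates the glyceraldehyde formed from fructose, was at 206 to 274 CPM in Hep-Bmal1KO and 316 to 367 CPM in Hep-Bmal1WT and fell (-0.56 ± 0.26, adjusted p = 0.00768). Sord, which makes fructose from sorbitol, fell by the same test (-0.50 ± 0.19, 0.0117). In lower glycolysis, Gapdh measured 684, 741, 671 and 587 CPM in Hep-Bmal1KO and 1001, 1079, 954 and 1032 CPM in Hep-Bmal1WT (-0.60 ± 0.13, adjusted p = 0.00226 in the 8 libraries and 0.0596 over the 48). Gapdh is widely used as a reference gene, and here its groups did not overlap. Eno1, encoding enolase, fell alongside it (-0.62 ± 0.14, 0.00287), as did Gpi1 (-0.46 ± 0.13, 0.0219), Galm (-0.40 ± 0.14, 0.0435) and Pdk2, a kinase that restrains pyruvate dehydrogenase (-0.65 ± 0.18, 0.015). Gapdh and Eno1 have near copies elsewhere in the genome, so reads may be divided among them.

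Taken as the list of glycolysis and carbohydrate-response (CHREBP) targets, 14 genes were tested, of which 2 fell (Khk and Tkfc), 0 rose and 10 had a negative log2 fold change, with a median of -0.221 against 0.015 over all genes, of which 47.7% were below 0 and 52.2% above. Gckr, which encodes the regulator that holds glucokinase in the nucleus, was at 0.63 ± 0.18 and was not called (adjusted p = 0.158). Of 16 genes of fructose, polyol and lower glycolytic metabolism, a list drawn up after values were seen, 15 were negative and 7 fell. Their median was -0.395 at ZT18 and -0.46 at ZT06. These values partly follow from the choice of the list and add no separate support. Over all genes tested 0.56% fell, 0.334% rose and 47.7% were negative, shares that stand beside each list below.

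Of 14 genes of gluconeogenesis and glycogen, 1 fell and 0 rose. That gene was Gbe1, the glycogen branching enzyme, with 87.9, 80.5, 73.2 and 75 CPM in Hep-Bmal1KO and 168, 159, 138 and 133 CPM in Hep-Bmal1WT (-0.92 ± 0.24, adjusted p = 2.28e-05). All of these sugar genes kept their sign at ZT06, where Khk (-0.95 ± 0.28), Tkfc (-0.69), Sord (-0.61), Gapdh (-0.58), Eno1 (-0.49), Gpi1 (-0.41), Pdk2 (-0.69) and Gbe1 (-0.90) also passed in the 8 ZT06 libraries alone. Galm did not pass there (-0.29, 95% interval -0.58 to -0.01).

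**Figure D2:**
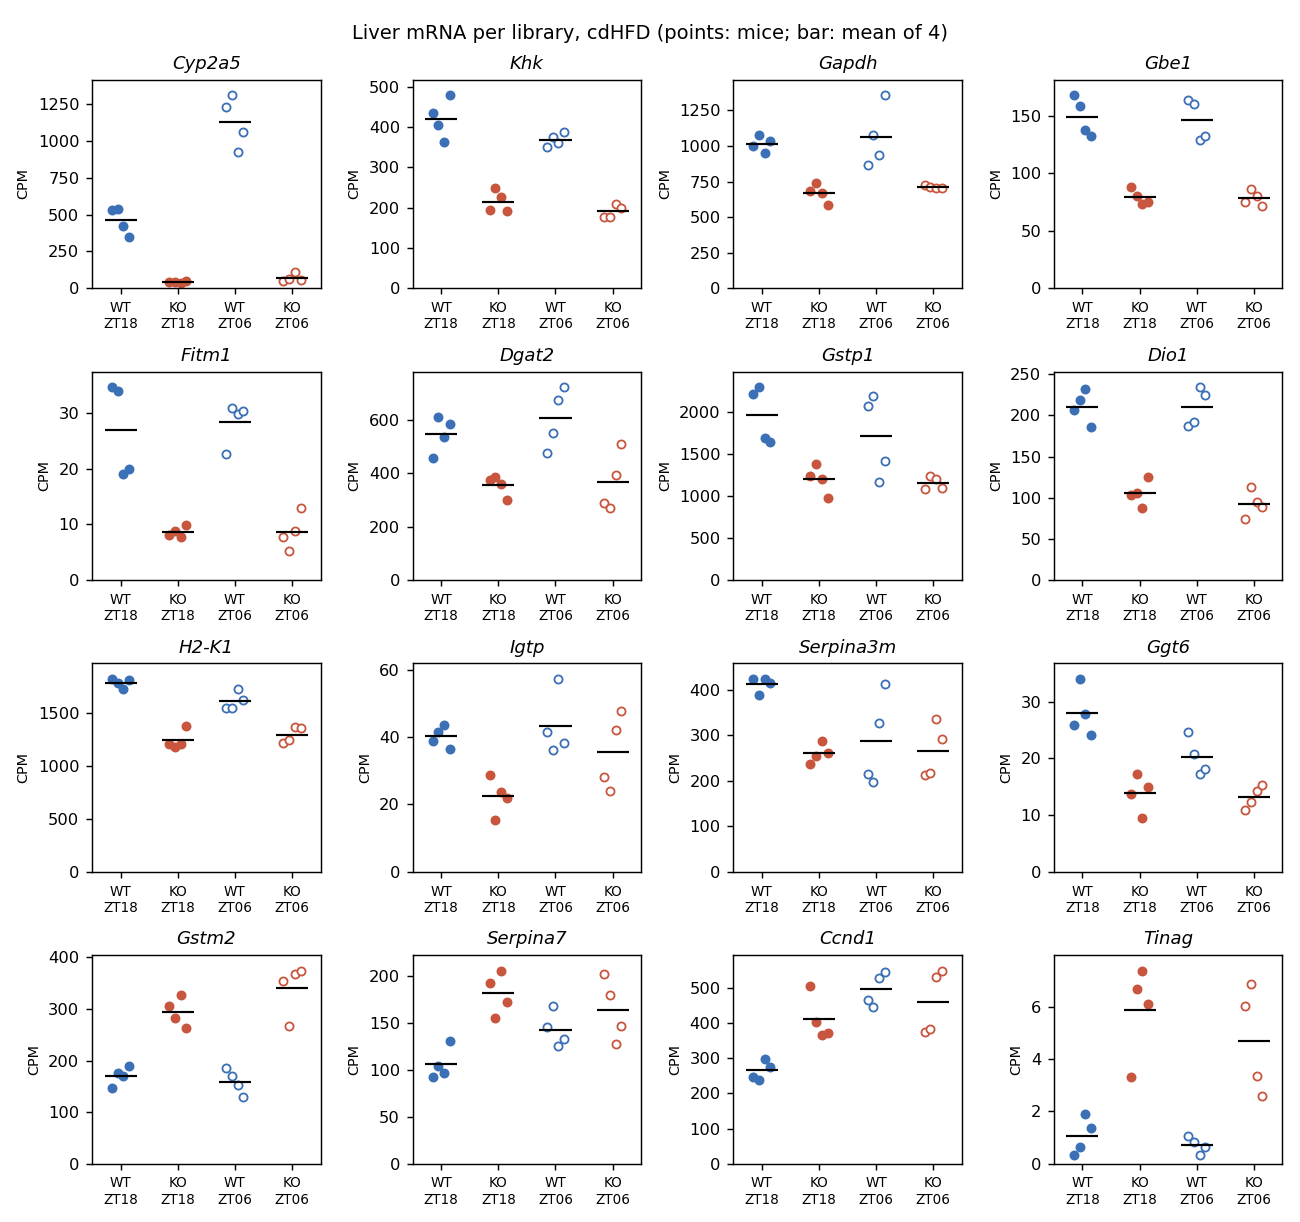
CPM of 16 genes in each mouse (y axis), at ZT18 (filled circles) and ZT06 (open circles), Hep-Bmal1WT in blue and Hep-Bmal1KO in red, with a bar at the mean of 4 mice. At ZT18 the groups do not overlap in any of the 16 panels, whereas at ZT06 those of Dgat2, Gstp1, Igtp, Serpina3m, Serpina7 and Ccnd1 overlap. All 16 genes were called at ZT18, so their separation there largely follows from the choice of genes.

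Among genes of triglyceride handling, Fitm1, which encodes a lipid droplet protein of the endoplasmic reticulum, had one of the larger decreases. It measured 8.00, 8.72, 7.77 and 9.9 CPM in Hep-Bmal1KO and 34.6, 33.9, 19 and 19.9 CPM in Hep-Bmal1WT (-1.64 ± 0.49, adjusted p = 9.59e-05 in the 8 libraries, 0.268 over the 48). Dgat2, the enzyme of the last step of triglyceride synthesis, measured 373, 384, 361 and 299 CPM and 457, 608, 535 and 583 CPM in turn (-0.62 ± 0.20, 0.00384). Both genes were lower in all 4 Hep-Bmal1KO livers. Agpat2, which acts earlier in the same pathway, was at 340.2 to 395 CPM in Hep-Bmal1KO and 475 to 532 CPM in Hep-Bmal1WT and fell (-0.45 ± 0.13, 0.0169). Chpt1, the last enzyme of the CDP-choline route to phosphatidylcholine, also fell (-0.60 ± 0.16, 0.0134).

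Of the 20 genes listed for triglyceride synthesis, lipid droplets and very-low-density lipoprotein, these 2 (Agpat2 and Dgat2) fell and 0 rose, and the median was -0.118. Of 30 genes of fatty acid oxidation and PPAR-alpha targets, 1 rose, Cyp4a31, a fatty acid omega-hydroxylase (0.70 ± 0.37, 0.00768), 0 fell, and the median was -0.023. Outside the lists, Crot, a peroxisomal carnitine acyltransferase, rose (0.51 ± 0.21, 0.0219), and the acyl-CoA thioesterase gene Acot7 (-0.60 ± 0.15, 0.0184) and the beta-oxidation gene Hadh (-0.39 ± 0.16, 0.0469) fell. Lsr, a receptor for lipoproteins rich in triglyceride, fell (-0.76 ± 0.21, 0.00029), as did Apom, a carrier of sphingosine-1-phosphate on high-density lipoprotein (-0.60 ± 0.18, 0.00768). Lpl, lipoprotein lipase, did not overlap between groups (350.5 to 658 CPM in Hep-Bmal1KO, 223 to 281 CPM in Hep-Bmal1WT) but did not pass (0.93 ± 0.27, adjusted p = 0.11).

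Carboxylesterases, which hydrolyse lipid and drug esters, leaned to lower values. Of 11 tested, 3 fell (Ces1b at -0.75 ± 0.27, 0.00404, Ces1f at -0.89 ± 0.43, 0.00794, and Ces1g at -0.62 ± 0.31, 0.0296), 0 rose and 10 were negative, with a median of -0.554 at ZT18 and -0.775 at ZT06. Ces1g was 1 of the 3 called genes whose groups overlapped. Ces1d, a lipase of the hepatocyte endoplasmic reticulum, had the lowest value of those named, -1.43 ± 0.58, and did not pass (0.0804). The Ces1 genes lie in a cluster of near copies, so reads may be divided among them.

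Cyp2a5, a coumarin hydroxylase, had the largest log2 fold change of the drug metabolism genes named here. It measured 39.8, 38.9, 34.5 and 51.8 CPM in Hep-Bmal1KO and 531, 538, 425 and 349 CPM in Hep-Bmal1WT, 11.2-fold lower in Hep-Bmal1KO (log2 fold change -3.48 ± 0.78, adjusted p = 1.61e-08 in the 8 libraries and 0.0799 over the 48). The highest Hep-Bmal1KO value was far below the lowest Hep-Bmal1WT value, and the same held at ZT06 (48.1, 63.2, 112 and 53.7 CPM against 1231, 1312, 928 and 1059 CPM). Cyp2a5 is close in sequence to Cyp2a4, and reads could be split between them. Of 29 genes listed for xenobiotic receptors and cytochrome P450, 3 fell, Cyp2a5 with the retinoic acid hydroxylase gene Cyp26a1 (-1.45 ± 0.54, 0.0159) and Cyp3a25 (-0.47 ± 0.27, 0.0328), and 2 rose, the aryl hydrocarbon receptor gene Ahr (0.57 ± 0.24, 0.0296) and the aldehyde oxidase gene Aox3 (0.61 ± 0.16, 0.00226).

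Glutathione S-transferases moved in both directions. Gstp1 measured 1239, 1379, 1205 and 976 CPM in Hep-Bmal1KO and 2221, 2300.0, 1698 and 1650.0 CPM in Hep-Bmal1WT, and fell (-0.71 ± 0.29, 0.00582). Gstm2 measured 306, 283, 328 and 263 CPM and 146, 176, 170.3 and 190.1 CPM in turn, and rose (0.79 ± 0.28, 0.000147). The alpha-class genes Gsta2 (-1.14 ± 0.36, 0.0227), Gsta3 (-0.66 ± 0.26, 0.015) and Gsta4 (-0.78 ± 0.24, 0.00404) fell, as did Gclm, the modifier subunit of the enzyme that starts glutathione synthesis (-0.41 ± 0.14, 0.0393). Of the 24 genes listed for NRF2 and glutathione, 5 fell, 1 rose, and 17 were negative, with a median of -0.156. Ggt6, a member of the gamma-glutamyltransferase family that is not on the list, measured 13.8, 17.3, 9.48 and 15.1 CPM in Hep-Bmal1KO and 25.9, 34, 27.8 and 24.1 CPM in Hep-Bmal1WT (-1.005 ± 0.20, 0.00332), and its adjusted p over the 48 libraries, 0.0509, was the smallest of the comparison, shared with Vegfb and Tinag among others.

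Several genes of antigen presentation and interferon response were lower in Hep-Bmal1KO at ZT18. H2-K1, a classical class I heavy chain, measured 1209, 1175, 1212 and 1382 CPM in Hep-Bmal1KO and 1823, 1784, 1723 and 1813 CPM in Hep-Bmal1WT (-0.52 ± 0.14, adjusted p = 0.00582), and the gap between the groups was wider than the range within either. H2-D1 (-0.38 ± 0.13, 0.0481), H2-T22 (-0.60 ± 0.17, 0.00959) and H2-Q7 (-0.59 ± 0.22, 0.0367, with overlapping groups) also fell. Of 21 class I genes tested, a list drawn up after values were seen, 18 were negative, against 47.7% of all genes tested, with a median of -0.223. This count partly follows from the choice of the list and adds no separate support. The class I genes are near copies of each other, and reads between them may be divided.

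Igtp, an interferon-inducible GTPase of immune defence, measured 28.6, 15.3, 23.7 and 21.8 CPM in Hep-Bmal1KO and 38.9, 41.6, 43.6 and 36.6 CPM in Hep-Bmal1WT at ZT18 (-0.84 ± 0.27, 0.00614), with no overlap. Of 22 interferon-stimulated genes listed, 2 fell (Igtp and Ifit1, -0.77 ± 0.35, 0.0269), 0 rose, and 21 were negative. The median was -0.376 at ZT18 and -0.133 at ZT06, and 8 of the 22 had an unadjusted p under 0.05 at ZT18, all lower. Over all genes tested at ZT18, 0.56% fell, 3.74% were lower at an unadjusted p under 0.05 and 47.7% were negative. Irf7, the transcription factor of the response, was at -0.51 ± 0.19 and did not pass (0.196). Outside the list, the interferon-induced genes Rtp4 (-0.71 ± 0.24, 0.00794) and Apol9b (-0.88 ± 0.36, 0.0117) fell too. At ZT06 the interval of Igtp ran from -0.83 to 0.26 and that of Ifit1 from -0.86 to 0.51, and the difference between time points did not pass for either (unadjusted p = 0.156 and 0.236). The summed markers of T and NK cells were 94.35 to 132.3 CPM in Hep-Bmal1KO and 116.9 to 128.6 CPM in Hep-Bmal1WT, and those of Kupffer cells 2846 to 4563 CPM and 3332 to 3361 CPM. Their part in the class I and interferon values was not tested.

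Some cell cycle genes were among those that rose. Ccnd1, cyclin D1, measured 504, 402, 366 and 372 CPM in Hep-Bmal1KO and 247, 237, 299 and 276 CPM in Hep-Bmal1WT (0.63 ± 0.26, 0.00358), with no overlap. At ZT06 its values were 373, 381, 531 and 548 CPM and 465, 444, 526 and 546 CPM, which overlapped (-0.11, 95% interval -0.63 to 0.40). The replicative helicase genes Mcm4 (0.87 ± 0.27, 0.0282) and Mcm6 (0.65 ± 0.24, 0.015) also rose at ZT18. At ZT06 Mcm4 had the opposite sign (-0.61, 95% interval -1.14 to -0.08) and Mcm6 was near 0 (0.01). These 3 were the only ones called of the 22 cell cycle and DNA replication genes tested, and 0 fell. At ZT18, 13 of the 22 were positive and 9 negative, the latter including Rrm2 (-0.71), Ccnb2 (-0.43), Ccnb1 (-0.32) and Cdk1 (-0.28). The median of the list was 0.172 at ZT18 and -0.060 at ZT06. Nop58, a protein of small nucleolar RNA particles (0.95 ± 0.30, 0.0469), and Rcc2 (0.51 ± 0.19, 0.0367) rose as well.

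Several plasma and signalling proteins of hepatocytes changed. Serpina7, thyroxine-binding globulin, measured 192, 155, 205 and 172 CPM in Hep-Bmal1KO and 92.6, 104, 96.5 and 131 CPM in Hep-Bmal1WT, and rose (0.77 ± 0.23, 0.000776). Dio1, the liver deiodinase that acts on thyroid hormones, measured 103, 106, 87.4 and 126 CPM and 207, 219, 232 and 186 CPM in turn, and fell (-0.998 ± 0.35, 2.13e-05). Serpina3m, a protease inhibitor of a large mouse gene cluster, measured 237, 255, 288 and 262 CPM and 424, 388, 423 and 415 CPM and fell (-0.66 ± 0.30, 0.0005). All 3 kept the groups apart at ZT18. Of 22 acute phase genes, 1 rose (Itih3, 0.47 ± 0.14, 0.0182) and 1 fell (Saa4, -0.76 ± 0.26, 0.0138), with a median of -0.109. Itih2 rose with Itih3 (0.47 ± 0.14, 0.0296), both encoding heavy chains of inter-alpha-trypsin inhibitor. The complement genes C1ra (-0.45 ± 0.12, 0.0149) and C2 (-0.54 ± 0.16, 0.0195) fell. Hrg, histidine-rich glycoprotein, fell (-0.50 ± 0.23, 0.0296) although its groups overlapped. Of the growth factors, Vegfb (-0.78 ± 0.17, 0.0232) and Fgf1 (-0.76 ± 0.25, 0.0219) fell.

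In amino acid and one-carbon metabolism a single gene of each list was called. Agxt, which detoxifies glyoxylate, was at 182 to 271 CPM in Hep-Bmal1KO and 129.5 to 136 CPM in Hep-Bmal1WT and rose (0.77 ± 0.26, 0.000454) among 22 genes of amino acid catabolism. Ahcy, which clears S-adenosylhomocysteine, was at 287 to 353 CPM in Hep-Bmal1KO and 379 to 509 CPM in Hep-Bmal1WT and fell (-0.48 ± 0.17, 0.0277) among 18 genes of choline, methionine and one-carbon metabolism, a list that bears on a diet without choline, and whose median was -0.036. Uox, urate oxidase, fell too (-0.51 ± 0.17, 0.0282). Of the zonation lists, Lect2 rose among 12 pericentral genes (0.36 ± 0.15, 0.049) and Ctsc fell among 12 periportal genes (-0.44 ± 0.23, 0.0468), with medians of 0.140 and -0.020.

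Several of the larger increases belonged to genes of low level in Hep-Bmal1WT. Tinag, which encodes a basement membrane protein (chromosome 9, 76951698 to 77045802), measured 3.31, 6.69, 7.37 and 6.1 CPM in Hep-Bmal1KO and 0.318, 0.627, 1.9 and 1.35 CPM in Hep-Bmal1WT (2.46 ± 0.51, adjusted p = 0.00296 in the 8 libraries, 0.0509 over the 48). Hebp2, which encodes a haem-binding protein, measured 6.19, 6.09, 9.61 and 6.51 CPM and 1.59, 0.627, 1.9 and 1.35 CPM in turn (2.37 ± 0.76, 0.000371). No Hep-Bmal1WT library reached the lowest Hep-Bmal1KO value of either gene. Tox2, an HMG-box gene (2.90 ± 0.76, 0.00296), Npnt, a matrix ligand of integrins (2.34 ± 0.72, 0.0323), the phosphate transporter gene Slc34a2 (2.61 ± 0.999, 0.00699), the NKG2D ligand gene Raet1d (1.34 ± 0.41, 0.00192) and the citrate transporter gene Slc13a5 (1.44 ± 0.45, 0.0045) rose as well. Raet1d has near copies among its neighbours, so its reads may be shared. Each of these was also positive at ZT06, and all but Slc34a2 passed there in the 8 ZT06 libraries alone, with a log2 fold change of 2.70 for Tinag, 3.17 for Hebp2, 3.57 for Tox2 and 3.17 for Npnt. Ntrk2, a neurotrophin receptor gene, was at 2.20 ± 0.73 at ZT18 without passing (0.181), and passed at ZT06 (2.71). Nupr1, a stress-induced chromatin protein gene, rose at ZT18 (1.17 ± 0.60, 0.00101), and at ZT06 its values overlapped and spread from 4.46 to 46 CPM in Hep-Bmal1KO and 7.68 to 43.7 CPM in Hep-Bmal1WT.

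Most of the 139 genes pointed the same way 12 h away. At ZT06, 128 of them had the same sign as at ZT18 and 11 the opposite sign, against 59.1% same-sign among all genes. By the 48-library test 110 genes passed at ZT06 (0.707%), 73 higher (0.47%) and 37 lower (0.238%), and by the test of its own 8 libraries 372 (2.39%), 209 higher (1.34%) and 163 lower (1.05%). Of the 139, 55 also passed in the 8 ZT06 libraries alone (39.6% of the 139 and 14.8% of the 372), 54 in the same direction and Arntl in the opposite one. The remaining 84 did not pass at ZT06, which by itself does not show that they differ between the time points.

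Of those 84, 13 had an unadjusted p under 0.05 for the difference between ZT18 and ZT06 (4.84% of all genes tested), and none of the 13 passed after adjustment over all genes in the 48-library fit. The 84 were picked by passing at ZT18 and not at ZT06, and the same values enter this difference. That choice raises the count of 13, which therefore does not show a dependence on time. Sgk2, a kinase of the glucocorticoid-regulated family, measured 18.9, 22.2, 28.8 and 23.7 CPM in Hep-Bmal1KO and 34.2, 39.8, 39.8 and 37.5 CPM in Hep-Bmal1WT at ZT18, apart in every mouse (-0.69 ± 0.16, adjusted p = 0.0134). At ZT06 it measured 33.3, 33.8, 37.2 and 32.9 CPM and 34.1, 38.8, 31.6 and 26.4 CPM, which overlapped, with a 95% interval of -0.24 to 0.38 for the log2 fold change. The genotype effects differed by -0.76 ± 0.22 (unadjusted p = 0.00103, adjusted p = 0.365). Agpat2 was likewise lower at ZT18, while its ZT06 interval ran from -0.15 to 0.38 (difference -0.57 ± 0.19, unadjusted p = 0.00346). So was Acot7, with an interval of -0.28 to 0.36 (difference -0.64 ± 0.22, 0.00513), and Psen2, a presenilin gene that fell at ZT18 (-0.45 ± 0.14, 0.0244), with an interval of -0.23 to 0.35 (difference -0.52 ± 0.21, 0.0148). Among the genes that rose, Nop58 (difference 0.90 ± 0.42, unadjusted p = 0.0362), Rcc2 (0.58 ± 0.26, 0.0319) and Ccnd1 (0.75 ± 0.36, 0.0455) were of this kind. Mcm4 also rose (difference 1.48 ± 0.38, unadjusted p = 0.000298), but its ZT06 interval, given above, held only negative values.

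When the 16 libraries of ZT18 and ZT06 were fitted alone, 30 genes passed for the difference (0.193%), 4 of them among the 139, Arntl, Mcm4 (adjusted p = 0.01), the myosin light chain gene Myl6b (0.0263) and Desi2 (0.034). Myl6b was nearly silent throughout, at 0 to 0.132 CPM in Hep-Bmal1KO and 0.813 to 1.73 CPM in Hep-Bmal1WT at ZT18, and 0.403 to 1.31 CPM and 0.16 to 0.325 CPM at ZT06. Desi2 rose at both time points and by more at ZT06 (1.11 ± 0.14) than at ZT18 (0.42 ± 0.13).

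**Figure D3:**
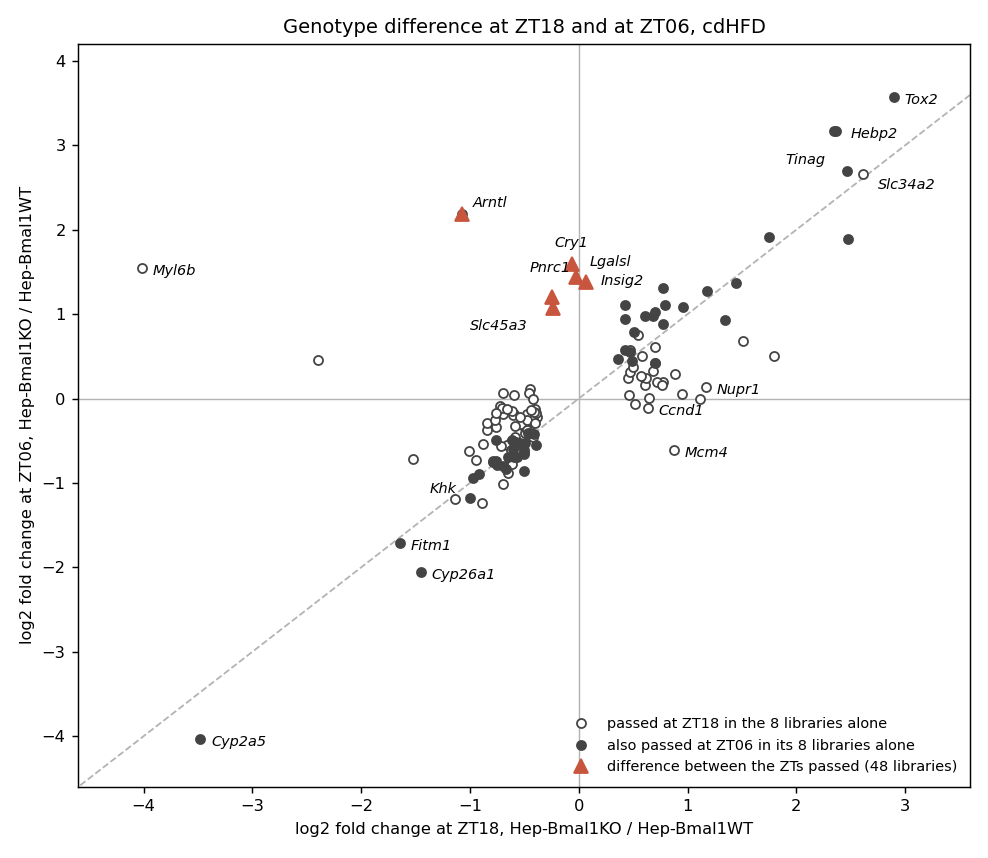
Log2 fold change (Hep-Bmal1KO minus Hep-Bmal1WT) of the 139 genes called at ZT18, at ZT18 (x axis) and at ZT06 (y axis), with filled circles for the 55 genes also called in the 8 ZT06 libraries and red triangles for Arntl, Pnrc1, Slc45a3, Insig2, Lgalsl and Cry1, which passed the test of the difference between the time points over 48 libraries and of which only Arntl is among the 139. The fold changes of 128 genes have the same sign at both times, and Arntl is lower at ZT18 and higher at ZT06.

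At the other time points of the cdHFD series, the sign at ZT18 was kept by 115 of the 139 genes at ZT02, 117 at ZT10, 124 at ZT14 and 139 at ZT22, where the all-gene shares were 53%, 56.7%, 54.6% and 62%. ZT10 and ZT14 hold the 3 libraries that lay nearer to the other genotype, and ZT22 shares its plate columns with ZT18. On normal chow at ZT18, 120 of the 139 had the same sign (56.5% of all genes), and 6 passed there, out of 80 genes called (0.515%), 39 higher (0.251%) and 41 lower (0.264%). One chow Hep-Bmal1WT library, replicate 4, lay nearer to Hep-Bmal1KO, at 0.92 on the clock genes and 0.89 on the others. Without it 122 of the 139 had the same sign and 31 passed, out of 147 genes called higher and 119 called lower. Khk was at -0.51 ± 0.22 on chow, Cyp2a5 at -2.46 ± 0.72, Dio1 at -1.43 ± 0.48, Fitm1 at -1.68 ± 0.64 and Gstm2 at 1.51 ± 0.41, all in the direction seen on cdHFD.

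No gene passed for a genotype effect that differed between the diets at ZT18 by edgeR's quasi-likelihood test, nor by DESeq2 (0 genes), and 753 genes (4.84%) had an unadjusted p under 0.05 by the former (smallest adjusted p = 0.609). The smallest p-values belonged to Zbtb10 (2.26), Add3 (1.27) and Col27a1 (3.14), with a higher genotype effect on cdHFD, and to Bcl2l12 (-1.44), Dnal1 (-5.27) and Rdh11 (-1.10), with a lower one. None passed for a genotype effect that differed between females and males either, with 2 mice of each sex in a group (0 genes by edgeR, 2 by DESeq2, and 935, or 6.01%, with an unadjusted p under 0.05 by edgeR). Mmp12, a macrophage elastase gene, came closest (genotype effect 1.32 higher in females, adjusted p = 0.0597), followed on that side by Nrbp2 (1.41) and Cdo1 (1.10), and by Fastk (-1.17), Krt18 (-1.12) and Pef1 (-1.04) on the other.

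Of the 34 gene lists, 16 had at least 1 member called at ZT18 in the 8-library fit and 18 had none. The 18 lists without a call hold 259 members. Of these, 7 had an unadjusted p under 0.05 and were higher and 17 were lower, against 4.2% and 3.74% of all genes tested. These lists are set apart by having no called member in the same data, which bears on these counts. The medians of the 18 lists ran from -0.334 to 0.216. Cholesterol synthesis is one of them. Its 20 genes gave 0 calls, 2 higher with an unadjusted p under 0.05, and a median of -0.040 at ZT18 and -0.158 at ZT06, with summed levels of 872.7 to 1483 CPM in Hep-Bmal1KO and 1105 to 1239 CPM in Hep-Bmal1WT. Idi1 had the largest log2 fold change of this list, 3.44 at ZT18 and 0.60 at ZT06, while 12 of the 20 genes were negative at ZT18. The 21 tested genes of cholesterol uptake, transport and control had a median of 0.010 and 0 calls, the 18 of bile acid synthesis and transport a median of -0.083 and 0 calls, and the 15 of lipogenesis a median of -0.151 and 0 calls. Among the bile acid genes, 13 negative and 5 positive, Nr0b2 was at -1.435 at ZT18 and -0.004 at ZT06. Cyp7a1, of the same list, was at 0.90 at ZT18 and -0.61 at ZT06. The list of liver clock output genes had the lowest median, -0.334, with 15 of 20 genes negative and 4 lower at an unadjusted p under 0.05. The list of matrix and tissue remodelling had the highest, 0.216, with 17 of 20 genes positive at ZT18, against a median of 0.892 at ZT06. At ZT06 Hep-Bmal1KO replicates 1 and 2 stood apart in the summed stellate cell and fibroblast markers, at 1964 and 1594 CPM, from replicates 3 and 4 (1011 and 1019 CPM) and from Hep-Bmal1WT (788.9 to 999.1 CPM), and the part of this in the matrix values was not tested.

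**Figure D4:**
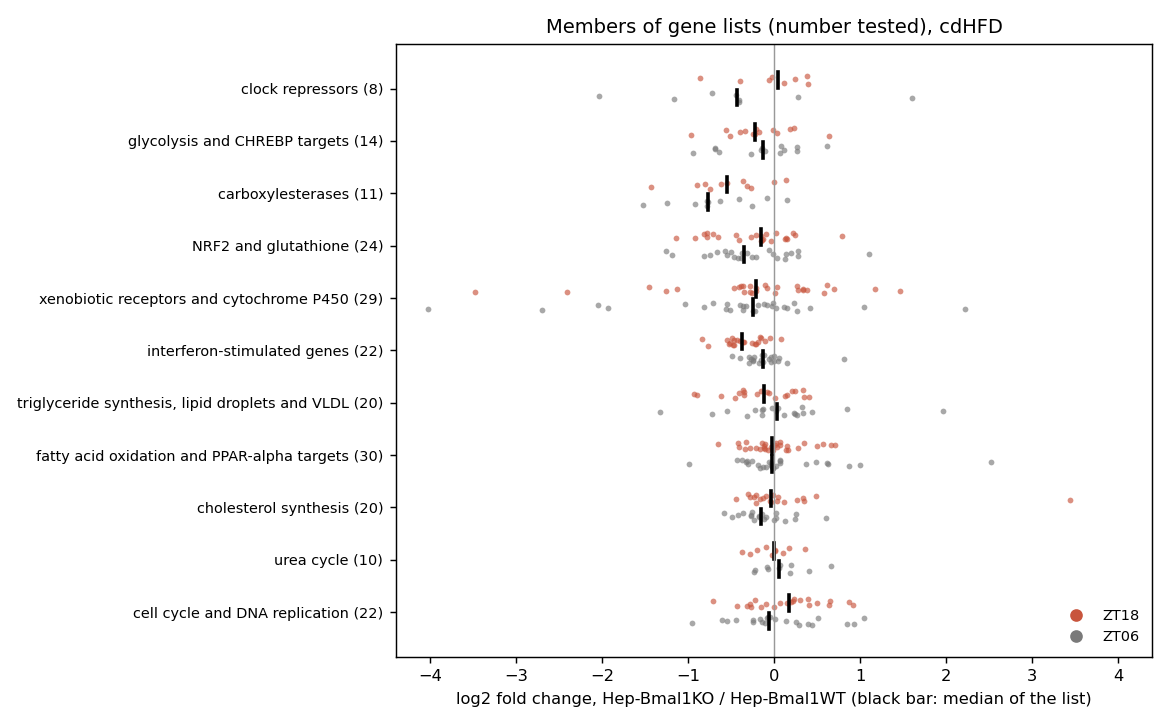
Log2 fold change (x axis, Hep-Bmal1KO minus Hep-Bmal1WT) of the members of 11 gene lists (y axis), each gene a circle, red at ZT18 and grey at ZT06, with a black bar at the list's median. Of the interferon-stimulated genes 21 of 22 lie below 0 at ZT18, and of the carboxylesterases 10 of 11, against 47.7% of all genes tested.

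Markers of other liver cells gave these values at ZT18. Summed monocyte and lipid-associated macrophage markers were 471.4 to 576.5 CPM in Hep-Bmal1KO and 384.2 to 455.2 CPM in Hep-Bmal1WT, which did not overlap, and no one of the 9 markers was called. Stellate cell and fibroblast markers were 1010 to 1486 CPM and 875.8 to 1114 CPM. All 12 were positive (median 0.244), and 1 rose, the stellate cell gene Reln (0.58 ± 0.18, 0.0367). Sinusoidal endothelial markers were 253.4 to 310.2 CPM and 309.0 to 382.6 CPM, and 1 of 9 fell, the lectin gene Clec4g (-0.54 ± 0.20, 0.0296). Markers of cholangiocytes (176.3 to 307.0 CPM and 88.14 to 226.8 CPM), neutrophils (116.7 to 214.7 CPM and 94.26 to 130 CPM), B cells (18.87 to 43.57 CPM and 25.42 to 74.51 CPM) and erythroid cells (347.5 to 1164 CPM and 743.3 to 1266 CPM) overlapped, and none was called. The neutrophil genes Ly6g, Mpo and Elane and the cholangiocyte gene Cftr had too few counts to be tested. The part of these cells in the values of other genes was not tested.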

How the data were processed

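Liver RNA of 96 mice was measured by BRB-seq, a pooled 3′ mRNA method. Per the paper's methods and the labels, the authors aligned reads with STAR to mm10, counted them per gene (HTSeq and featureCounts are both named) and deposited raw counts for 55487 genes. Collapse of molecular identifiers is not stated, so depth covers counting error only. Rows that name no gene held 22.57 to 39.86% of a library's counts and were left out. Replicates are separate mice.

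Genes with a summed count of at least 100 over the 96 libraries were tested (15548) with edgeR 4.0.16 (R 4.3.3; TMM, robust quasi-likelihood fit, 48 cdHFD libraries in 12 groups of genotype and time), with Benjamini-Hochberg adjustment at 0.05. The diet contrast used 96 libraries and the sex contrast the 48 split by sex. CPM are counts scaled by each library's total over the tested genes and its TMM factor, not adjusted for gene length. Alternatives were DESeq2 1.42.0, DESeq2 size factors, a filter of 10 counts in 4 libraries, no filter, the libraries of the times compared alone, all 96 libraries, sex as a covariate, an adjusted p under 0.01 and each library left out. Added after seeing the data were the fits without libraries near the other genotype, without Hep-Bmal1KO ZT18 replicates 1 and 3, and the fits of the compared times with sex.

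The 48-library and the 8-library fit were each tested on 1 set of simulated counts with known changes, where the share of false calls was below the 0.05 threshold in the 48-library fit and above it in the 8-library fit. The simulated spread was that estimated by the same fit, so these shares do not carry over to the real calls. Named genes were Arntl and the clock lists, the 10 genes in each direction of smallest p past an adjusted p of 0.05 and 2-fold with no overlap (none qualified), the 5 in each direction for ZT18 against ZT06, the 3 in each direction for diet and sex, and called or leading members of 34 lists, which are mostly given as counts where no member was called. The members and lists were chosen with earlier results of these data known. Positions are RefSeq's on GRCm38.p6, matched by symbol for 743 of 744 genes tabulated. Sequences are not used here, and some genes are not reported here.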

Additional observations from a re-analysis of the deposited data

Results flagged for a closer look

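In 7 of 218 groups of 4 libraries tested, 1 library stood apart from the other 3 by Dixon's test, and chance alone flags about 1 group in 20. These were Cry2 in Hep-Bmal1WT at ZT18, with 25.8 CPM in the library apart, Bhlhe41 in the same group (2.38 CPM), Mcm4 in the same group (10 CPM), Gsta2 in Hep-Bmal1KO at ZT18 (24 CPM), and in that group also Lect2 (467 CPM), Hebp2 (9.61 CPM) and Reln (49.5 CPM).

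The genotype effect at ZT18 minus that at ZT06 passed the test of the difference itself (adjusted p under 0.05, edgeR quasi-likelihood test over 48 libraries) for 7 genes, among them, in log2 units, -3.25 for Arntl, -1.45 for Pnrc1, -1.31 for Slc45a3, -1.32 for Insig2, -1.47 for Lgalsl and -1.66 for Cry1.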

How the results depend on the processing

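No paired analysis was possible because the labels number each mouse separately and give no replicate number that groups share. The count of genes called at ZT18, 0 higher and 0 lower over 48 libraries, became 9 and 23 with DESeq2, 2 and 5 with no filter, 52 and 87 in the 8 libraries alone, 112 and 181 there with sex as a covariate, 1 and 1 with all 96 libraries, 6 and 7 with sex as a covariate in the 48, and 20 and 16 without the 3 libraries of other time points near the other genotype. It ran from 0 to 10 higher and 0 to 2 lower with 1 library left out. The 8-library count, 52 and 87, became 16 and 24 at an adjusted p under 0.01 and 13 and 20 without Hep-Bmal1KO replicates 1 and 3, and ran from 19 to 59 and 30 to 93 with 1 library left out. The cause of these shifts was not tested.

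At ZT06, 73 higher and 37 lower became 149 and 74 with DESeq2, 209 and 163 in the 8 libraries alone, 348 and 347 there with sex, 28 and 10 with all 96, 150 and 69 without the 3 libraries, and 26 and 7 at an adjusted p under 0.01. They ran from 23 to 88 and 10 to 32 with 1 library left out, the lowest without Hep-Bmal1WT replicate 4. The 7 genes for ZT18 against ZT06 became 14 with DESeq2, 4 with no filter, 30 in the 16 libraries alone, 50 there with sex, 0 with all 96, 14 without the 3 libraries, 0 without Hep-Bmal1KO ZT18 replicates 1 and 3, and 2 at an adjusted p under 0.01, and ran from 2 to 8 with 1 library left out. For sex the 0 became 2 with DESeq2 and 0 to 3 with 1 library left out, and for diet 0 to 2, with 2 without chow Hep-Bmal1WT replicate 4.

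Of 108 of the genes named at ZT18, 8 changed sign with 1 library left out, none of them called at ZT18. Their log2 fold changes ran from -0.034 to 0.341 for Per2, -0.173 to 0.008 for Cry1, -0.188 to 0.101 for Bhlhe40, -0.012 to 2.16 for Bhlhe41, -0.018 to 0.35 for Dbp, -0.188 to 0.109 for Nfil3, -0.063 to 0.158 for Insig2 and -0.117 to 0.010 for Lgalsl. Without Hep-Bmal1KO replicates 1 and 3 Bhlhe40 was 0.298 and Lgalsl 0.035, and with sex as a covariate Nfil3 was -0.009 over 48 libraries and -0.010 in the 8. Transcripts near 1 CPM rest on a few reads in a library, so counting error limits what could be detected there.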
